A study of Mus musculus with 52 samples.

Results

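Endothelial cells (ECs) of the anterior pituitary in which beta-catenin had been stabilized were set against wild type (WT) cerebellum ECs, to ask how far the blood-brain barrier (BBB) program of the cerebellum was approached and which of its genes stayed out of reach. The comparison rested on 4 of the 52 samples of the series, 2 libraries of GFP-positive sorted cells from stabilized anterior pituitary and 2 from WT cerebellum, chosen by their titles and source names. WT mice carried Tie2-GFP, which marks ECs for sorting. Stabilized mice carried Tie2-GFP; Pdgfb-CreER; BcatEx3fl, in which a tamoxifen-inducible Cre driven by the EC gene Pdgfb cuts out the third exon of Ctnnb1, the gene of beta-catenin, and leaves a protein that escapes degradation. Stabilized mice received 100 µg of 4-hydroxytamoxifen at P10 and the WT mice carried no Cre, so Cre, drug and the stabilizing allele came together, and recombination by an inducible Cre need not reach every EC. All mice were adult males, and pituitaries of 20 to 30 mice (P30 to P90) were pooled for each pituitary replicate. Because tissue and genotype both differ between these 2 groups, their shares in a difference cannot be told apart from this contrast alone, and WT anterior pituitary ECs (2 libraries) are therefore given beside it as the level before stabilization.

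ECs of most brain regions form the BBB: they are joined by tight junctions, carry transporters for glucose, amino acids, lipids and hormones and pump out foreign compounds, and they transcytose little. Wnt ligands from neural cells keep this state through Frizzled receptors and beta-catenin, which enters the nucleus and acts with TCF/LEF factors. Capillaries of the anterior pituitary are fenestrated and leaky, as hormones must cross them.

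The 4 libraries held 33458597 and 28116011 estimated reads for WT cerebellum and 24947020 and 23300085 for stabilized anterior pituitary, and the WT anterior pituitary libraries held 31604109 and 29837291. Levels are given as TPM, a transcript's length-corrected share of the library on a fixed total, summed over the transcripts of a gene, in the order replicate 1 and replicate 2 (n = 2 libraries a group). One label is in conflict: the second stabilized anterior pituitary library is titled and sourced as anterior, but its tissue field says posterior. Gh, the growth hormone gene of the anterior lobe, was at 3467 TPM in the first library and 2676 TPM in this one, against 11.0 and 4.33 TPM in the stabilized posterior pituitary libraries. Prl, the prolactin gene, was at 502 and 746 TPM, against 3.42 and 2.24 TPM. Both hormone genes thus placed the second library beside the first, and the main counts are also given without it.

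Ctnnb1, the targeted gene, was measured at 928 and 1664 TPM in WT cerebellum ECs, 464 and 418 TPM in WT anterior pituitary ECs and 865 and 798 TPM in stabilized anterior pituitary ECs. Stabilized anterior pituitary ECs were below both cerebellum libraries without passing the test (log2 fold change -0.88 ± 0.30, SE, adjusted p = 0.184). The total of a gene does not show whether its exon 3 was removed, so this level is no check of recombination. The defining EC genes Pecam1 (319.5 and 338 TPM in WT cerebellum, 461 and 332 TPM in stabilized anterior pituitary) and Cdh5 (160.1 and 165 and 287 and 233 TPM) were high in every library.

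A gene was called different when edgeR's quasi-likelihood test, fitted to the 12 GFP-positive libraries, gave a Benjamini-Hochberg adjusted p below 0.05 and at least a 2-fold difference. Of 17915 genes tested, 341 were called lower in stabilized anterior pituitary than in WT cerebellum ECs (1.90%) and 376 were called higher (2.10%). The barrier genes were followed on 7 lists with 90 genes: nutrient transporters, efflux pumps, tight junctions, barrier surface proteins and enzymes, the Wnt receptor complex, Wnt targets with feedback regulators, and barrier transcription factors. Among the 90 genes, 47 were called lower and 3 higher, and their median log2 fold change was -2.17, against 0.08 over all genes tested.

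Of the 90 barrier genes, 71 reached 10 TPM in both WT cerebellum libraries, and these were sorted by how close stabilized anterior pituitary ECs came. Enrichment in GFP-positive over GFP-negative cells was not required of them, so RNA of other cells was not screened out. A total of 26 genes stayed out of reach, that is, called lower and at no more than 10% of the mean WT cerebellum TPM. Another 21 stood part way, called lower but above 10%. A near level, not called and at 50% or more, was measured for 17 genes, and 7 genes that were not called but lay below 50% were left undecided. The 3 barrier genes that were called higher (Slc29a1, Abca1 and Jam3) lay below 10 TPM in at least 1 WT cerebellum library and so outside the 71, and since this filter keeps genes that are high in WT cerebellum ECs, nothing is read from the count of 0 higher genes among the 71. Without the library with the conflicting tissue label the counts were 28 out of reach, 11 part way, 15 undecided and 17 near. Without that library 24 of the 26 out-of-reach genes, 11 of the 21 part-way genes and 16 of the 17 near genes kept their class. Under every alternative tried 16 out-of-reach, 3 part-way, 0 undecided and 12 near genes did. Of the 7 undecided genes, 6 were called lower with only the 4 libraries compared and all 7 with no filter on low counts. The 3 part-way genes that kept their class were Slc7a1, Slc39a10 and Foxc1, so the other part-way calls named in the text were each lost or moved to another class under some alternative. The 5 near genes that changed class were Axin2, Cgnl1, Fzd4, Itih5 and Sox7. The 10 out-of-reach genes that changed class under some alternative were Adgra2, Alpl, Fzd6, Lsr, Notum, Pglyrp1, Slc19a3, Slc35f2, Slc6a6 and Slco1a4.

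**Figure D1:**
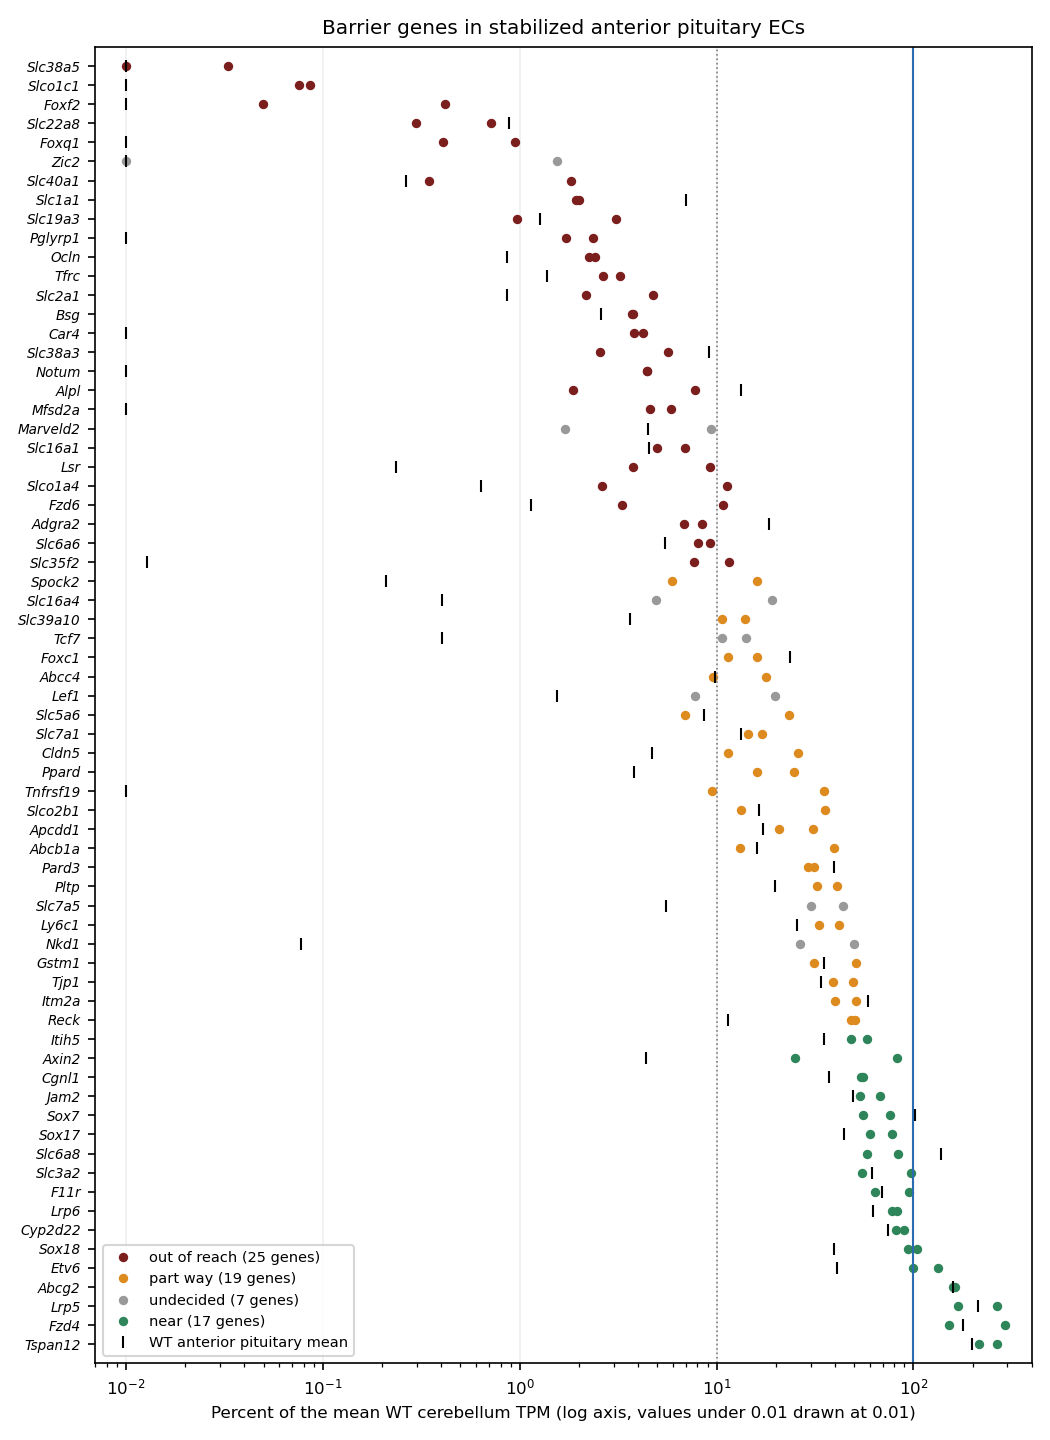
Level of 68 of the 71 barrier genes in each stabilized anterior pituitary library (points, 2 a gene) as a percent of the mean WT cerebellum TPM, on a log axis, colored by class, with the WT anterior pituitary mean as a black tick, the WT cerebellum level as a blue line and 10% as a dotted line. The 25 out-of-reach genes drawn average at or below the dotted line, and the 17 near genes lie around the blue line.

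WT anterior pituitary ECs were already called lower than WT cerebellum ECs at 56 of these 71 genes and higher at 1 near gene, Tspan12, against 3.003% lower and 2.26% higher over all genes. All 26 out-of-reach genes and all 7 undecided genes were among the 56, with 19 part-way genes and 4 near genes (Cgnl1, Itih5, Lrp6 and Axin2). Of the remaining 15 genes, 13 were near and 2, Pard3 and Itm2a, were part way. These splits share the WT cerebellum libraries with the classes and are given as a description. Against WT anterior pituitary ECs, 16 of the 90 barrier genes were called higher after stabilization and 0 lower, where 0.441% and 0.0167% of all genes were called in these directions and 1252 genes had an unadjusted p under 0.05. Of the 16, 9 remained out of reach, 5 stood part way and 2 were undecided.

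Chromatin that could be cut by the transposase of ATAC-seq was compared at the same 71 genes in the sorted ECs (2 libraries a group). A peak counted for a group when it passed a fold enrichment above 2 and a -log10 q above 2 in both libraries, and a promoter meant 1000 bases either side of an annotated start. A promoter peak was found at 67 of the 71 genes in WT cerebellum ECs, at 57 in WT anterior pituitary ECs and at 64 in stabilized anterior pituitary ECs. At 12 genes the promoter peak of WT cerebellum ECs was missing from WT anterior pituitary ECs, and 7 of these 12 had one in stabilized anterior pituitary ECs. These promoter counts have no share over all genes beside them and are a description of the 71 genes. Of the out-of-reach genes, Mfsd2a, Slc19a3, Slc35f2, Ocln and Pglyrp1 had regained a promoter peak, whereas Slc22a8, Slco1a4, Slco1c1 and Car4 had not. Every one of the 17 near genes had a promoter peak in all 3 groups. The libraries differed in how much was called, with 21137 shared peaks in WT cerebellum, 34121 in WT anterior pituitary and 37305 in stabilized anterior pituitary ECs, and the part of this in the counts was not tested.

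Peaks within 100 kb of the genes were added after the promoter counts were seen. This set can include promoter peaks, such as 1 by Slc7a1 with a match 143 bases from its start. Within 100 kb of the 71 genes, 165 peaks of WT cerebellum ECs were absent from both WT anterior pituitary libraries, and 59 of them (35.8%) were present in both stabilized anterior pituitary libraries. Over the whole genome 575 of 2543 such peaks (22.6%) had opened. The share was 26.1% (23 of 88 peaks) around out-of-reach genes, 44.7% (17 of 38) around part-way genes, 48.0% (12 of 25) around undecided genes and 50.0% (10 of 20) around near genes. A peak within 100 kb of genes of different classes counts in each, so the class counts add up to more than 165 and 59. Of the 10 opened peaks around near genes, 5 lay by Axin2 and 3 by Abcg2, while the single such peaks by Fzd4, Lrp5 and Tspan12 had not opened, so the shares describe peaks and not genes. None of the 3 such peaks near Slco1c1 or the 2 each near Foxf2, Foxq1 and Slc38a5 had opened. Foxf2 and Foxq1 are neighbors within 100 kb, so the same peaks can count for both.

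The 7-base letters TTCAAAG, a core of the DNA element bound by TCF/LEF factors, were searched on both strands in the 201 bases around the summit of each WT cerebellum peak. They occurred in 21 of the 59 opened peaks near barrier genes (35.6%) and in 14 of the 106 that had not opened (13.2%). Genome-wide the shares were 25.6% of the 575 opened peaks and 11.9% of the 1968 others, against 4.22% of all 21137 WT cerebellum peaks. A match is a description of the letters and not of binding. Matches are shown for opened peaks of genes of each class, because they place the element beside genes whose transcripts did and did not come close to the cerebellum level. Each window is 29 bases of mm10, printed 5′ to 3′ on the strand of the match with the 7 letters in capitals, and distances run to the nearest annotated start of the gene's coding transcripts.
Slco1a4, intron, 17.6 kb downstream of its start, chr6:141827868-141827896, minus strand: ctagagttggtTTCAAAGaacccaggtgt
Car4, upstream of the gene, 1.28 kb from its start, chr11:84956497-84956525, plus strand: ccctacagaggTTCAAAGgctggtgctgg
Slc19a3, intron, 17.8 kb downstream of its start, chr1:83020576-83020604, plus strand: taaaacacatcTTCAAAGtcttgggtaac
Slc39a10, between genes, 33.1 kb upstream of its start, chr1:46925936-46925964, plus strand: actgttgggagTTCAAAGagtaaactaaa
Spock2, between genes, 4.29 kb upstream of its start, chr10:60101911-60101939, minus strand: ttaatgtctgcTTCAAAGgaagacaggta
Tnfrsf19, intron, 25.3 kb downstream of its start, chr14:61012614-61012642, plus strand: gagcagagcgtTTCAAAGtcaggctttga
Nkd1, between genes, 26.0 kb upstream of its start, chr8:88495309-88495337, plus strand: gggccttcatgTTCAAAGgccagcaagac
Lef1, intron, 24.5 kb downstream of its start, chr3:131137283-131137311, plus strand: gctttgatctcTTCAAAGgctgctgcctc
Abcg2, intron, 17.0 kb upstream of its start, chr6:58623533-58623561, minus strand: tatttttagagTTCAAAGttctccattgt
Slco1a4, Car4 and Slc19a3 were out of reach, Slc39a10, Spock2 and Tnfrsf19 part way, Nkd1 and Lef1 undecided, and Abcg2 near. The Tnfrsf19 peak was the most enriched of these, at 14.2-fold and 14.7-fold in the WT cerebellum libraries and 14.9-fold and 13.8-fold in the stabilized anterior pituitary libraries. The Car4 peak was at 6.29-fold and 5.10-fold in WT cerebellum and 4.47-fold and 6.22-fold in stabilized anterior pituitary ECs. These ranges overlapped, while the Car4 transcript was at 4.02% of the cerebellum level.

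Nutrient transporters carried the widest gaps. Of the 24 on the list, 18 were called lower, 1 higher and 5 were not called (median log2 fold change -3.64), and 13 were out of reach. Slco1c1 (ENSMUSG00000030235.17, mm10 chr6:141524368-141570177), which carries thyroid hormone and organic anions into the brain, was among the most abundant transporters of WT cerebellum ECs at 1679.9 and 1345 TPM. In stabilized anterior pituitary ECs it was at 1.14 and 1.30 TPM, or 0.0808% of the cerebellum level (log2 fold change -10.37 ± 0.44, SE, adjusted p = 2.05e-07). This was more than the 0 and 0.0162 TPM of WT anterior pituitary ECs, which rested on 1 read (adjusted p = 2.68e-05), so the gene rose with stabilization and still remained out of reach. Slc38a5 (mm10 chrX:8271133-8280179), a glutamine transporter, fell from 68.7 and 122 TPM to 0.0315 and 0 TPM, with 2 reads in both stabilized libraries together (WT cerebellum to stabilized ratio 6501, 95% counting interval 1799 to 53689.5, counting error only). Slc22a8, an organic anion exporter, was at 158 and 168 TPM against 1.17 and 0.483 TPM, and Slc40a1, the iron exporter ferroportin, at 367 and 321 TPM against 1.19 and 6.27 TPM. Neither of these exporters was called different between stabilized and WT anterior pituitary ECs (adjusted p = 0.755 and 0.822, edgeR).

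The glucose transporter gene Slc2a1 (ENSMUSG00000028645.11, mm10 chr4:119108711-119137983) was at 3.47% of the WT cerebellum level, 34.7 and 76.5 TPM against 1579 and 1625 TPM (log2 fold change -5.04 ± 0.38, SE, adjusted p = 1.23e-05). WT anterior pituitary ECs held 10.8 and 16.7 TPM of Slc2a1, below both stabilized libraries (log2 fold change 1.88 with stabilization). Mfsd2a, which carries lysophospholipid forms of omega-3 fatty acids, was at 5.22% and Slc35f2 at 9.64%. Both were at or near 0 in WT anterior pituitary ECs and were called higher after stabilization. Slco1a4, an organic anion transporter, spread more between the stabilized libraries, at 16.4 and 70.9 TPM against 557 and 698 TPM in WT cerebellum ECs. Its second library alone would have stood above 10% of the cerebellum level. The remaining out-of-reach transporters were not called higher than in WT anterior pituitary ECs. They were Slc38a3 (glutamine, 4.11%), Slc1a1 (glutamate, 1.97%), Slc16a1 (lactate and ketone bodies, 5.96%), Slc6a6 (taurine, 8.63%) and Slc19a3 (thiamine, 2.02%). Slc19a3 lost its call with all 24 sorted libraries, with the length offset and without either stabilized library or the second WT cerebellum library (adjusted p = 0.0552 to 0.124, edgeR), while its log2 fold change stayed between -6.80 and -5.36. For Slc1a1 and Slc38a3 the stabilized mean lay below that of WT anterior pituitary ECs (6.99% and 9.19% of the cerebellum level), without a call.

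**Figure D2:**
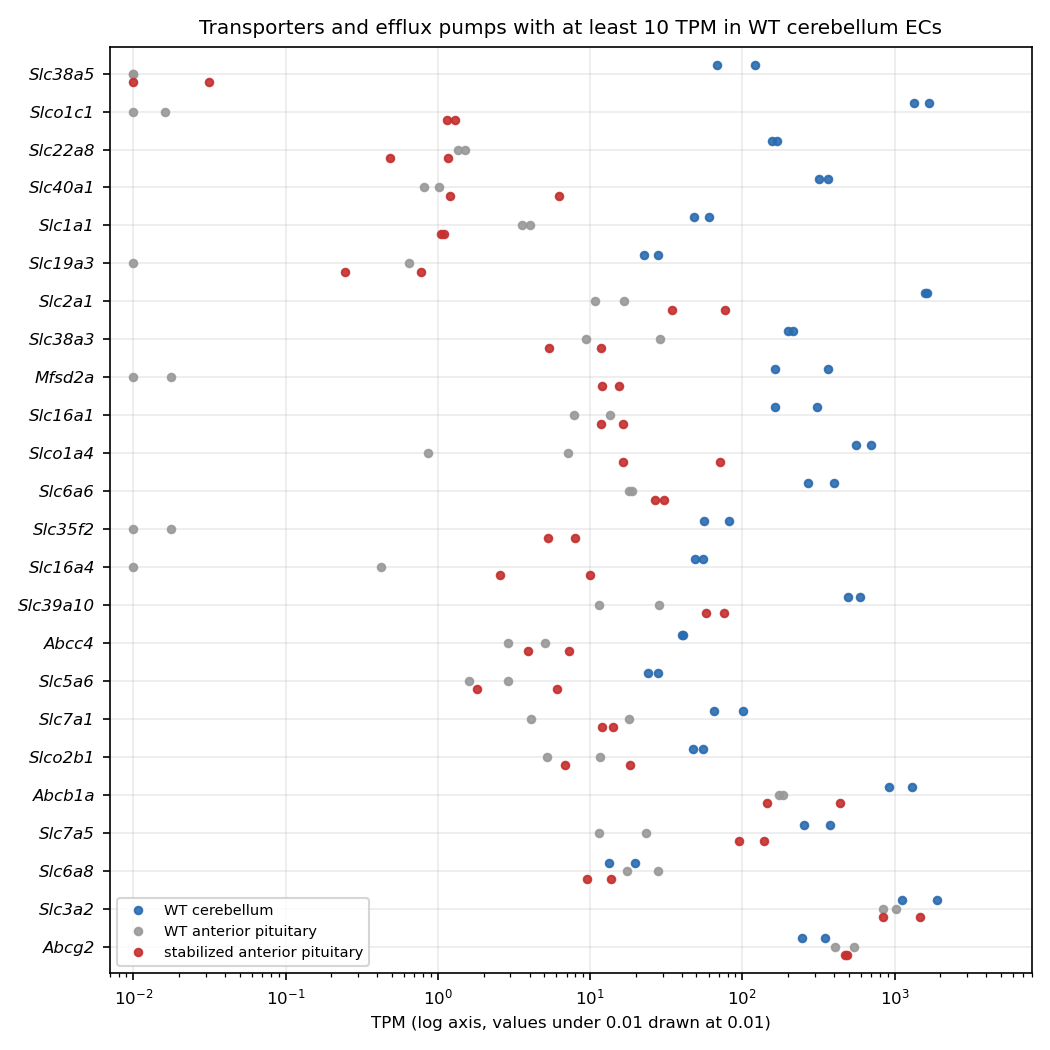
TPM on a log axis of transporters and efflux pumps that reached 10 TPM in both WT cerebellum libraries, with 1 point a library, ordered by the level reached. Stabilized anterior pituitary ECs stand left of WT cerebellum ECs for all but Slc6a8, Slc3a2 and Abcg2, whose points overlap or are reversed in order.

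Part-way transporters included Slc39a10, a zinc importer, which moved from 28.4 and 11.4 TPM in WT anterior pituitary ECs to 58.1 and 76.4 TPM, against 597 and 497 TPM in WT cerebellum ECs (log2 fold change -2.82 ± 0.30, SE, adjusted p = 0.000154). It was called higher than in WT anterior pituitary ECs (log2 fold change 2.09 ± 0.29, SE, adjusted p = 0.00582). Slc7a1 (cationic amino acids, 15.7%), Slc5a6 (biotin and pantothenate, 15.1%) and Slco2b1 (organic anions, 24.4%) were also part way, and none of the 3 was called different from WT anterior pituitary ECs. The neutral amino acid transporter is a pair of proteins, and its genes fell into different classes, with no call for either. Slc7a5, the transporting chain, was at 254 and 375 TPM in WT cerebellum, 23.2 and 11.5 TPM in WT anterior pituitary and 94.5 and 138 TPM in stabilized anterior pituitary ECs, a level of 37.0% that was undecided (log2 fold change -1.58, 95% interval -3.58 to 0.42). Slc3a2, the anchoring chain, was near at 1906 and 1123 TPM against 1474 and 834 TPM, and its ranges overlapped. Slc16a4, a monocarboxylate transporter family member, was undecided at 48.9 and 55.2 against 2.56 and 9.92 TPM (adjusted p = 0.155, edgeR) and called lower with only the 4 libraries compared (0.0419), and Slc6a8, the creatine transporter, was near at 70.8%. Slc29a1, an equilibrative nucleoside transporter, went the other way, from 6.82 and 13.2 TPM in WT cerebellum to 217 and 81.7 TPM in stabilized anterior pituitary ECs (log2 fold change 3.92 ± 0.73, SE, adjusted p = 0.0077). This call was lost without either WT cerebellum library and with the length offset (adjusted p = 0.0677 to 0.0826, edgeR).

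Efflux pumps divided by gene. Abcb1a, which encodes the drug pump P-glycoprotein, was part way at 146 and 438 TPM against 1299 and 924 TPM (log2 fold change -2.06 ± 0.35, SE, adjusted p = 0.00415). Against the 186 and 173 TPM of WT anterior pituitary ECs it was called higher on read counts (log2 fold change 2.08, adjusted p = 0.0211, edgeR), but its TPM ranges overlapped and the rise in TPM lay in the second stabilized library alone. Abcg2, the second major drug pump, was near at 349 and 248 TPM in WT cerebellum, 406 and 542 TPM in WT anterior pituitary and 484 and 475 TPM in stabilized anterior pituitary ECs, and neither anterior pituitary group was called different from WT cerebellum ECs. Abcc4, an organic anion pump, was part way at 13.8%. Abcc5, another organic anion pump, was at 12.0 and 4.83 against 20.1 and 10.6 TPM (adjusted p = 0.984). Abca1, a cholesterol exporter below 10 TPM in 1 WT cerebellum library, was called higher (6.82 and 11.2 against 65.6 and 50.0 TPM, log2 fold change 1.93 ± 0.31, SE, adjusted p = 0.0025).

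Among 13 tight junction genes, 6 were called lower, 1 higher and 6 were not called (median log2 fold change -1.20). Cldn5 (ENSMUSG00000041378.2, mm10 chr16:18776847-18778262), the main claudin of brain ECs, was part way at 54.8 and 124 TPM against 453 and 511 TPM (log2 fold change -2.76 ± 0.47, SE, adjusted p = 0.00398). WT anterior pituitary ECs held 23.4 and 21.9 TPM, below both stabilized libraries, and that step was not called (log2 fold change 1.82, adjusted p = 0.151, edgeR). Ocln, encoding occludin, was out of reach at 206 and 223 against 5.17 and 4.83 TPM, as was Lsr, encoding the tricellular junction protein angulin-1, at 109 and 68.4 against 3.33 and 8.18 TPM. Lsr lost its call without any single one of the 4 libraries (adjusted p = 0.0618 to 0.217, edgeR), with all 24 sorted libraries (0.18), with the length offset (0.0975) and with DESeq2 (0.108), while its log2 fold change stayed between -4.87 and -3.47. Marveld2, the partner of Lsr at tricellular junctions, was undecided at 5.52% (adjusted p = 0.0739, edgeR) and called lower with DESeq2 (0.00129) and with only the 4 libraries compared (0.0348). The scaffold gene Tjp1 (44.3%) and the polarity gene Pard3 (30.2%) were part way, while the adhesion genes Jam2 (60.7%) and F11r (79.6%) and the junction plaque gene Cgnl1 (54.7%) were near. Jam3, an adhesion gene at 5.83 and 4.90 TPM in WT cerebellum ECs, was called higher at 97.5 and 83.8 TPM (log2 fold change 3.97 ± 0.90, SE, adjusted p = 0.025), a call that was lost without either WT cerebellum library (adjusted p = 0.197 and 0.158, edgeR) at log2 fold changes of 3.94 and 4.04.

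Of 13 barrier surface proteins and enzymes, 10 were called lower and none higher. Bsg (mm10 chr10:79704491-79711969), encoding basigin, the partner of lactate transporters, was at 2873 and 3597 TPM in WT cerebellum ECs and 122 and 121 TPM in stabilized anterior pituitary ECs (log2 fold change -4.91 ± 0.35, SE, adjusted p = 8.02e-06), close to the 94.4 and 72.6 TPM of WT anterior pituitary ECs (adjusted p = 0.938). Tfrc, the transferrin receptor that imports iron, was at 2.95%, and Alpl, a phosphatase of brain capillaries, at 4.84%. Car4 (mm10 chr11:84957786-84966044), a carbonic anhydrase of the capillary surface, differed in that it rose from 0 and 0.179 TPM to 50.1 and 55.7 TPM (3 reads before and 1682 after, adjusted p = 2.73e-05), yet stayed at 4.02% of the 1482 and 1147 TPM of WT cerebellum ECs. Pglyrp1, a peptidoglycan recognition protein, was listed at 0 in both WT anterior pituitary libraries and at 5.58 and 4.09 TPM after stabilization, or 2.04% of the cerebellum level. The step of Pglyrp1 from WT to stabilized anterior pituitary ECs was not called. Part way stood Spock2, a proteoglycan gene that rose from 1.24 and 0.623 to 26.5 and 71.1 TPM (log2 fold change 6.05 ± 0.52, SE, adjusted p = 8.48e-05), and Pltp (36.6%), Ly6c1 (37.6%), Gstm1 (41.0%) and Itm2a (45.5%). Ly6c1 and Gstm1 belong to families of near-identical genes between which reads can be divided wrongly, so their values are uncertain. Itih5 (53.2%) and Cyp2d22 (85.5%) were near.

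The Wnt receptor complex was split, with 4 of its 7 genes near, 1 part way and 2 out of reach. Fzd4, the receptor for norrin and Wnt ligands, was at 22.1 and 20.1 TPM in WT cerebellum and 61.5 and 31.8 TPM in stabilized anterior pituitary ECs, and its co-receptors Lrp5 (217%) and Lrp6 (80.1%) and the accessory protein gene Tspan12 (241%) were likewise near. The 95% intervals of these 4 log2 fold changes were 0.34 to 1.65 for Fzd4, -0.05 to 1.55 for Lrp5, -1.31 to -0.06 for Lrp6 and 0.31 to 1.49 for Tspan12. The intervals of Fzd4 and Tspan12 lay above 0, that of Lrp6 lay below 0 and that of Lrp5 included 0. Fzd4 was called higher with DESeq2 (log2 fold change 1.01, adjusted p = 0.0203) and with no filter on low counts (adjusted p = 0.0186, edgeR). Fzd6, another Frizzled receptor, was out of reach at 69.8 and 56.2 against 2.08 and 6.78 TPM, although called higher than the 0.647 and 0.797 TPM of WT anterior pituitary ECs (adjusted p = 0.038, edgeR). Adgra2 and Reck encode the membrane pair that makes brain ECs sensitive to WNT7A and WNT7B. Adgra2 was out of reach at 32.2 and 21.7 TPM in WT cerebellum, 6.43 and 3.56 TPM in WT anterior pituitary and 2.28 and 1.85 TPM in stabilized anterior pituitary ECs. Reck rose from 1.36 and 1.32 TPM to 5.68 and 5.92 TPM (log2 fold change 2.05 ± 0.29, SE, adjusted p = 0.00582) and stood part way to the 12.9 and 10.7 TPM of WT cerebellum ECs.

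Direct targets and feedback regulators of Wnt signaling are induced by beta-catenin in many cell types and so report on the pathway inside the cell. Of 14 on the list, 3 were called lower than in WT cerebellum ECs and none higher, and 4 were called higher than in WT anterior pituitary ECs. Nkd2, a relative of the pathway inhibitor Nkd1, had the opposite order, at 1.9999 and 1.53 TPM in WT cerebellum, 28.0 and 13.9 TPM in WT anterior pituitary and 40.8 and 17.9 TPM in stabilized anterior pituitary ECs, and missed the call (log2 fold change 3.43 ± 0.89, SE, adjusted p = 0.0524). It was called higher in 6 of the 11 alternatives, DESeq2 among them (adjusted p = 0.00166). Axin2, part of the complex that degrades beta-catenin, came to 8.97 and 29.6 TPM against 30.2 and 41.5 TPM, so the stabilized libraries lay far apart and the interval of the log2 fold change was wide (-3.24 to 0.86). Axin2 was no longer near when the second stabilized library or the first WT cerebellum library was left out (log2 fold changes of -1.87 and -1.23), and with no filter on low counts it was called lower (-1.17, adjusted p = 0.0346, edgeR). Nkd1, an inhibitor of the pathway, rose from 0.0393 and 0 TPM to 6.76 and 12.6 TPM (2 reads before and 1525 after, adjusted p = 0.000864) and was undecided against the 27.5 and 23.2 TPM of WT cerebellum ECs (adjusted p = 0.201), though called lower with only the 4 libraries compared and with no filter on low counts. The transcription factor genes Lef1 (156 and 119.7 against 10.8 and 27.3 TPM) and Tcf7 (26.2 and 23.9 against 2.65 and 3.54 TPM) were undecided at 13.8% and 12.4%. Both were called lower with no filter on low counts and with only the 4 libraries compared (adjusted p = 0.0124 and 0.00592, edgeR), and Tcf7 also with DESeq2 (0.000236) and the replicate block (0.0319). Their relatives on the transcription factor list were not called, Tcf7l1 at 3.71 and 4.80 against 23.8 and 14.4 TPM (adjusted p = 0.133) and Tcf7l2 at 5.21 and 7.12 against 13.1 and 10.2 TPM (adjusted p = 0.614), though Tcf7l1 was called higher with DESeq2 (adjusted p = 0.0361) and with no filter on low counts (0.024, edgeR). Tnfrsf19, a receptor gene induced by the pathway and listed at 0 in both WT anterior pituitary libraries, was part way at 3.48 and 12.9 TPM against 29.3 and 44.4 TPM. Apcdd1, an inhibitor at the cell surface, was part way at 25.7% with no call against WT anterior pituitary ECs (adjusted p = 0.46). Notum, a secreted enzyme that inactivates Wnt ligands, was out of reach at 4.44% (2.36 and 2.35 against 70.9 and 35.1 TPM).

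Of 13 barrier transcription factors, 5 were called lower and none higher. Foxf2 (mm10 chr13:31625816-31631403) and its neighbor Foxq1 (mm10 chr13:31556134-31560976), forkhead genes of brain ECs, were at 40.9 and 37.2 and 29.2 and 22.1 TPM in WT cerebellum ECs, in that order. In stabilized anterior pituitary ECs Foxf2 was at 0.0194 and 0.164 TPM and Foxq1 at 0.243 and 0.105 TPM (log2 fold change -9.08 ± 0.75, SE, adjusted p = 4.68e-05 for Foxf2, and log2 fold change -7.42 ± 0.79, SE, adjusted p = 0.000226 for Foxq1). Zic2, a zinc finger gene, had 38.8 and 31.2 TPM in WT cerebellum ECs and 0 and 0.54 TPM in stabilized ECs and missed the call (adjusted p = 0.0592, edgeR), but was called lower with the replicate block, with only the 4 libraries compared and without the second stabilized library (0.0149 to 0.038), and with no filter on low counts. Foxc1, a forkhead gene also of mural cells, was part way at 13.7%, as was the nuclear receptor gene Ppard at 20.4%. Sox17 (68.9%), Sox7 (65.5%) and Sox18 (99.2%), SOX factors of ECs in general, and Etv6 (117%), an ETS factor, were near.

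Genes of permeable capillaries were followed as the other side of the comparison. Plvap (mm10 chr8:71497765-71511752), which builds the diaphragms of fenestrae, was at 0 and 10.7 TPM in WT cerebellum, 845 and 1028 TPM in WT anterior pituitary and 1326 and 1145 TPM in stabilized anterior pituitary ECs. It was called higher than in WT cerebellum ECs (log2 fold change 7.49 ± 1.85, SE, adjusted p = 0.0409) and not called different from WT anterior pituitary ECs (log2 fold change 0.07 ± 1.39, SE, adjusted p = 1). The Plvap call was lost with only the 4 libraries compared, with all 24 sorted libraries, with the length offset and without either stabilized library (adjusted p = 0.0512 to 0.124, edgeR), while the log2 fold change was between 7.51 and 7.59 in those fits. Among 9 genes of fenestrae and caveolae, 3 were called higher (Plvap, Ehd4 and Cavin3) and 1, the caveolin gene Cav1 (154 and 181 against 46.2 and 66.2 TPM), was called lower. Ehd4, a membrane-shaping ATPase, was at 32.7 and 32.3 against 374 and 349 TPM (log2 fold change 3.32 ± 0.27, SE, adjusted p = 1.93e-05), and Cavin3, a caveola coat gene, at 19.9 and 12.7 against 68.7 and 73.7 TPM. Cavin3 lost its call with all 24 sorted libraries (adjusted p = 0.229, edgeR), and Cav1 with that fit, with only the 4 libraries, with the length offset and without the first stabilized library (0.055 to 0.117). Cav2, Cavin1, Cavin2, Ehd2 and Pacsin2 were not called, with levels of 55.5% to 272%.

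Of 8 genes of capillary lipid uptake, 3 were called higher and none lower. Fabp4, a fatty acid binding protein of peripheral capillaries, was at 0 and 3.28 TPM against 631 and 349.8 TPM (log2 fold change 8.22 ± 1.22, SE, adjusted p = 0.00146), and Gpihbp1, which holds lipoprotein lipase on the capillary wall, at 0 and 1.21 TPM against 83.2 and 46.2 TPM (log2 fold change 5.87 ± 1.08, SE, adjusted p = 0.00663). Gpihbp1 lost its call with only the 4 libraries compared (adjusted p = 0.0858, edgeR). Cd36, a fatty acid receptor of capillaries that macrophages also carry, was listed at 0 in both WT anterior pituitary libraries and was at 12.7 and 10.0 TPM after stabilization (adjusted p = 0.00238), above the 1.62 and 0.0726 TPM of WT cerebellum ECs (log2 fold change 5.06 ± 0.92, SE, adjusted p = 0.00773). In the same step the macrophage and leukocyte markers went from a sum of 46.1 and 27.3 to 1009 and 798 TPM, and their part in the Cd36 level was not tested. The Cd36 call against WT cerebellum ECs was lost with all 24 sorted libraries, with the length offset and without the second WT cerebellum library (adjusted p = 0.0776 to 0.239, edgeR). Cd300lg was at 7.52 and 2.91 against 28.2 and 12.8 TPM and missed the call (adjusted p = 0.0721, edgeR), but was called higher with DESeq2 (0.0101), with only the 4 libraries compared (0.0378) and with no filter on low counts.

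In the VEGF and angiopoietin pathway, which keeps fenestrated capillaries in place, 4 of 11 genes were called higher and 1 lower. The VEGF-C receptor gene Flt4 (10.6 and 11.4 against 44.7 and 26.1 TPM), the co-receptor gene Nrp2 (12.1 and 10.8 against 66.7 and 43.1 TPM), Tie1 (26.9 and 19.6 against 62.2 and 54.7 TPM) and the apelin receptor gene Aplnr (6.09 and 20.9 against 102 and 76.5 TPM) were higher with no overlap. These calls were lost in the fit of all 24 sorted libraries (adjusted p = 0.281 to 0.825, edgeR), and those of Flt4 and Tie1 also with the length offset (0.0735 and 0.0731). Flt4 lost its call without the first stabilized or the first WT cerebellum library (0.0818 and 0.129), and Tie1 without the second stabilized library (0.0746). Aplnr lost its call with only the 4 libraries compared (0.0872). Flt1, a VEGF-A receptor that also acts as a decoy, was lower at 1003 and 507 against 244 and 187 TPM (log2 fold change -1.90 ± 0.30, SE, adjusted p = 0.00248), a call that was lost with all 24 sorted libraries (adjusted p = 0.452). Kdr, the main signaling receptor of VEGF-A, was at 148 and 203 against 445 and 247 TPM without a call (log2 fold change 0.80 ± 0.31, SE, adjusted p = 0.288), and the co-receptor gene Nrp1 passed on p but stayed under 2-fold (log2 fold change 0.97 ± 0.25, SE, adjusted p = 0.0496). Tek, Angpt2 and Apln were not called, and Esm1, a gene of VEGF-stimulated ECs, was at 0 and 1.76 against 12.6 and 12.2 TPM (adjusted p = 0.244, edgeR), called higher with no filter on low counts and without the second WT cerebellum library (0.00207). None of the 11 genes was called different between stabilized and WT anterior pituitary ECs.

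**Figure D3:**
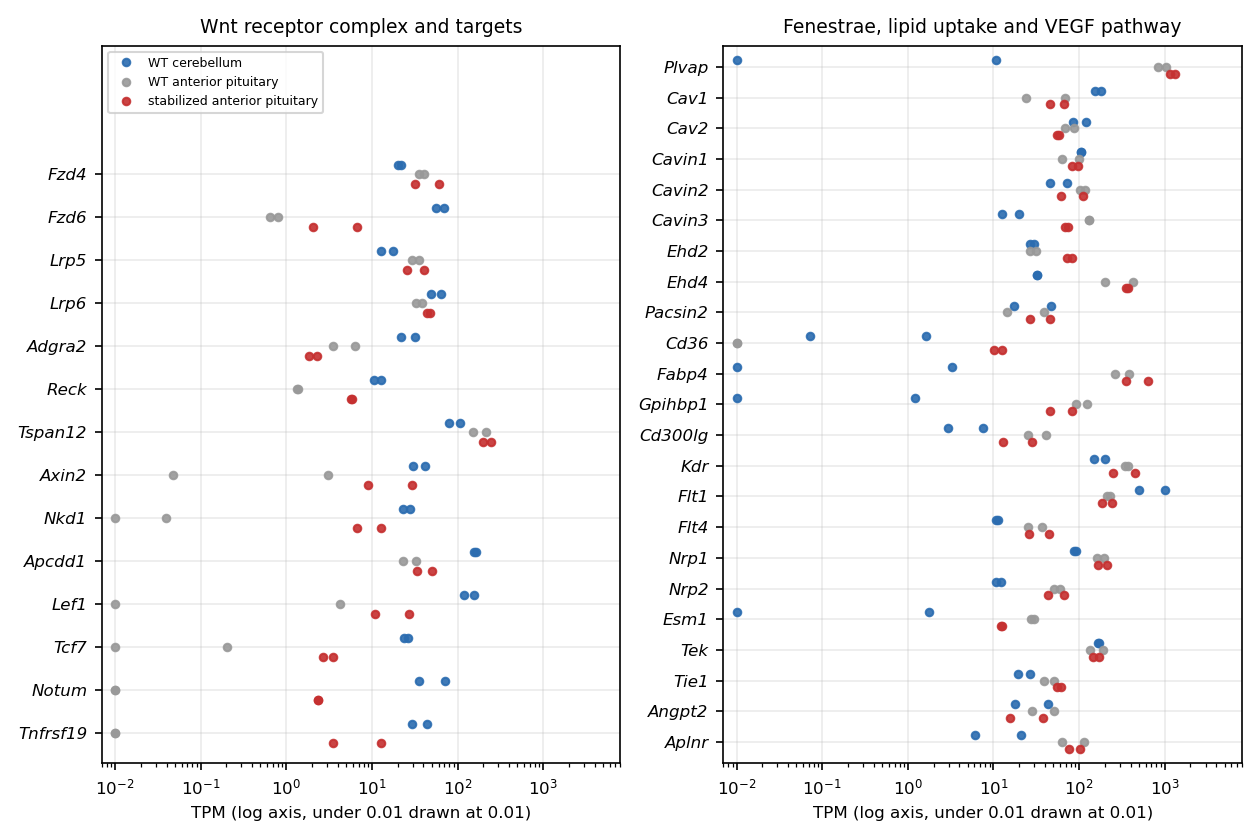
TPM on a log axis of the Wnt receptor complex and Wnt targets (left) and of fenestra, lipid uptake and VEGF pathway genes (right), 1 point a library. Most Wnt targets of stabilized anterior pituitary ECs lie between WT anterior pituitary and WT cerebellum ECs, whereas Plvap, Fabp4 and Gpihbp1 lie beside WT anterior pituitary ECs.

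To look past the lists, gap transcripts were defined as genes called lower in WT anterior pituitary than in WT cerebellum ECs, enriched in GFP-positive over GFP-negative cerebellum cells (4.46% of genes) and at 10 TPM or more in both WT cerebellum libraries. There were 212, all protein-coding, and 39 of them stood on the barrier lists. Of the barrier genes, 56 met the call and TPM conditions, and those beyond the 39 were not called enriched in GFP-positive cerebellum cells. In stabilized anterior pituitary ECs the median level of the 212 gap transcripts was 30.2% of the WT cerebellum level (quartiles 13.6% and 45.1%), with 30.7% in the first library and 28.7% in the second. In WT anterior pituitary ECs the median was 21.6% (quartiles 5.34% and 37.2%). The stabilized mean was above the WT anterior pituitary mean for 167 of the 212 transcripts, and 28 were called higher and 0 lower by edgeR (0.441% and 0.0167% of all genes, with 1252 genes at an unadjusted p under 0.05 in either direction). Both stabilized libraries lay below both WT cerebellum libraries for 197 of the 212 transcripts. No share over all genes is given beside this count, and a list chosen on high WT cerebellum values favors it. By class, 41 were out of reach, 114 part way, 20 undecided and 37 near. The list was chosen on low WT anterior pituitary and high WT cerebellum values, which by itself favors a higher value in any other group than in WT anterior pituitary, so the counts and medians against WT anterior pituitary ECs are a description. It was also chosen on the WT cerebellum libraries that set the level, and a list chosen on 1 replicate and measured in the other gave medians of 42.5% and 27.7%.

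Of the 28 gap transcripts called higher after stabilization, 24 remained called lower than in WT cerebellum ECs and 4 did not. The 4 were Net1, Nkd1, Pcp4l1 and Slc52a3. Net1, an exchange factor for the GTPase RhoA, came closest in TPM, at 129 and 212 TPM in WT cerebellum, 5.81 and 3.66 TPM in WT anterior pituitary and 133 and 129 TPM in stabilized anterior pituitary ECs, or 77.1% (log2 fold change -1.53 ± 0.52, SE, adjusted p = 0.174). With only the 4 libraries compared, Net1, Nkd1 and Pcp4l1 were called lower than in WT cerebellum ECs (adjusted p = 0.0379, 0.0241 and 0.0444, edgeR), as they were with no filter on low counts. Slc52a3, a riboflavin transporter, moved from 0 in both WT anterior pituitary libraries to 1.32 and 4.05 TPM, against 10.1 and 12.5 TPM, and Pcp4l1 from 6.81 and 0.281 TPM to 81.2 and 129 TPM, against 486 and 248 TPM. The lowest levels among the 28 were those of Slco1c1, Foxq1, Bche (1.83%), which encodes butyrylcholinesterase, and Cxcl12 (2.24%), a chemokine. Net1, Pcp4l1, Slc52a3, Bche and Cxcl12 were singled out after their values were seen.

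The 6 gap transcripts with the highest level were Lamb2 (121%), Tnks1bp1 (109%), Eogt (97.1%), Dennd4c (96.9%), Cp (89.7%) and Samd12 (88.1%). Their ranges in TPM overlapped those of WT cerebellum ECs. Read counts put Samd12 lower, at a log2 fold change of -1.20 (95% interval -1.90 to -0.51), and it was called lower with DESeq2 (adjusted p = 0.00707) and with only the 4 libraries compared (0.0357, edgeR). WT anterior pituitary ECs were already at 109.6% for Lamb2 (42.7 and 380.1 TPM, far apart), 82.4% for Tnks1bp1, 53.7% for Eogt and 46.2% for Samd12, and lower at 32.9% for Dennd4c and 21.7% for Cp. For Lamb2, a laminin chain of the basement membrane, the scales were at odds as well, since TPM was 159 and 227 against 171 and 295 while read counts gave a call (log2 fold change -1.15 ± 0.27, SE, adjusted p = 0.0285) that was lost with a correction for transcript length, with all 24 sorted libraries (adjusted p = 0.261, edgeR) and without any single one of the 4 libraries (0.0612 to 0.219). Cp, encoding the copper enzyme ceruloplasmin, was at 195 and 157 TPM in WT cerebellum, 25.0 and 51.3 TPM in WT anterior pituitary and 159.9 and 156 TPM in stabilized anterior pituitary ECs, and the last step was not called (adjusted p = 0.0951).

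**Figure D4:**
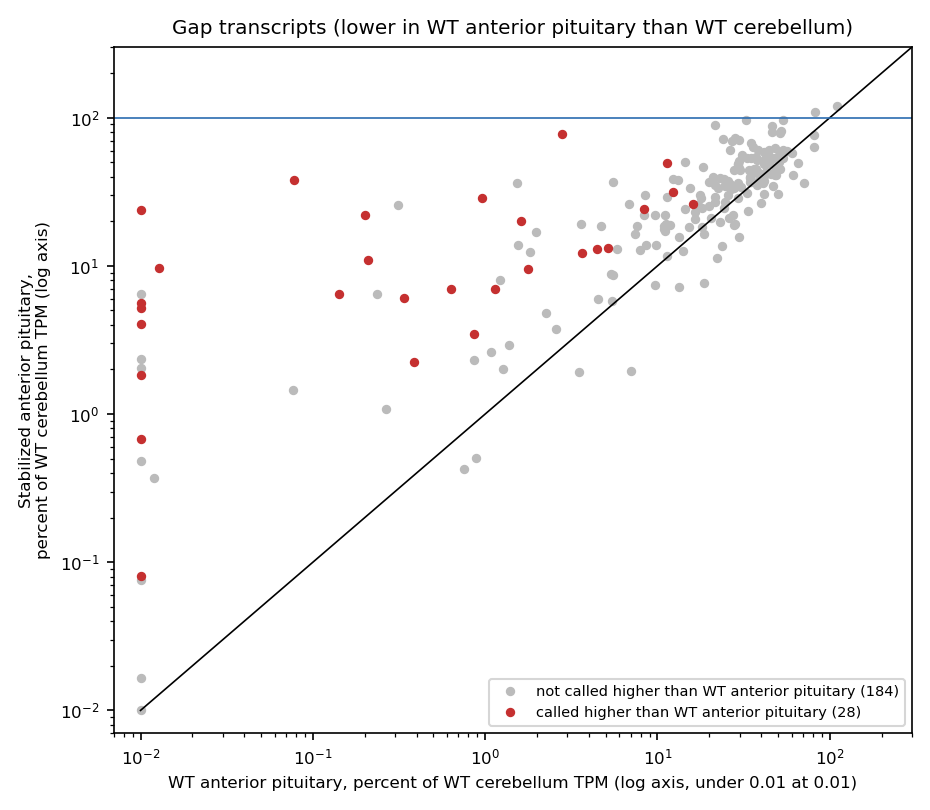
Level of the 212 gap transcripts in WT anterior pituitary (x) and stabilized anterior pituitary ECs (y), each as a percent of the WT cerebellum TPM on log axes, with equality as a black line and the WT cerebellum level as a blue line. Transcripts called higher after stabilization (red, 28) rise above the black line mostly where the WT anterior pituitary level is low, and 2 of the 212 transcripts reach the blue line.

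Across all genes the 6 largest falls among EC-enriched transcripts were Ccl21a, Slc38a5, Slco1c1, Sema3c, Ddc and Slc22a8. Ccl21a, a chemokine gene with near-identical copies that can share its reads, was listed at 0 in both stabilized libraries against 205 and 219.5 TPM, at least 3306-fold lower at a floor of 3 reads over the group. Sema3c, a secreted guidance cue, was at 251 and 319.9 TPM against 0.0217 and 0.414 TPM (log2 fold change -10.22 ± 0.73, SE, adjusted p = 8.02e-06). Ddc, the enzyme that makes dopamine and serotonin from their amino acid precursors, was at 193 and 133 TPM against 0.613 and 0.597 TPM (log2 fold change -8.77 ± 0.92, SE, adjusted p = 0.000194). None of these 3 was called different between stabilized and WT anterior pituitary ECs.

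The 6 largest rises among transcripts enriched in GFP-positive over GFP-negative anterior pituitary cells (5.14% of genes) were Meis2, Chrm3, Krt80, Sema3d, Oit3 and Irx5, and each was also present in WT anterior pituitary ECs. Meis2, a homeobox transcription factor, had 1 read in the WT cerebellum libraries together and 828 and 647 TPM in stabilized anterior pituitary ECs (ratio 30887, 95% counting interval 5543 to 1220030.0), beside 621 and 1144 TPM in WT anterior pituitary ECs. Irx5, another homeobox gene, was at 12.5 and 11.0 TPM against 0 and 0.0142 TPM (ratio 1492, 95% counting interval 267 to 58965). Chrm3, a muscarinic acetylcholine receptor, was at 44.6 and 25.6 TPM (ratio 8625, 95% counting interval 1548 to 340714), and Sema3d, a guidance cue related to Sema3c, at 34.2 and 24.4 TPM (ratio 2611, 95% counting interval 893 to 12666). Krt80, a keratin, was at 38.4 and 11.0 TPM (ratio 7751, 95% counting interval 1391 to 306182), and Oit3 at 40.0 and 21.4 TPM (log2 fold change 10.68 ± 0.85, SE, adjusted p = 3.3e-05). None of the 6 was called different between stabilized and WT anterior pituitary ECs, with adjusted p between 0.698 and 1.

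Stabilized ECs of the posterior pituitary, the nearest comparison, carried more of the barrier genes. Of the 90 barrier genes, 20 were called lower in stabilized anterior than in stabilized posterior pituitary ECs, against 0.307% of all genes, and 0 were called higher, against 0.246%, while 1224 of all genes had an unadjusted p under 0.05 in either direction. Of the 20, 14 were out of reach in the anterior pituitary and 6 were part way. The effect of stabilization itself differed between the lobes at 5 of the 90 genes by an interaction term, lower in the anterior lobe for Slc2a1, Slc40a1, Slc22a8 and Apcdd1 and higher for Car4, against 0.0558% and 0.0726% of all genes. Slco1c1 was at 94.5 and 73.7 TPM in the posterior pituitary libraries against 1.14 and 1.30 TPM (log2 fold change -6.81 ± 0.38, SE, adjusted p = 5.82e-06), and Foxf2 at 7.24 and 8.65 TPM against 0.0194 and 0.164 TPM (log2 fold change -6.73 ± 0.70, SE, adjusted p = 0.00185). Slc6a6, Slc39a10 and Reck, at 85.8 and 90.8, 139 and 157 and 20.3 and 17.3 TPM, were higher there as well. Tfrc, Bsg and Slc16a1 were not called, and they were at 4.77%, 5.91% and 1.29% of the WT cerebellum level in the stabilized posterior pituitary. Over the 212 gap transcripts 33 were called lower in the anterior lobe and 1, the pericyte-associated gene Rgs5, higher, and the median level was 27.6% in the posterior against 30.2% in the anterior lobe. The gap transcripts were chosen on low WT anterior pituitary values, with no condition on the posterior lobe. That choice by itself favors lower calls in the anterior lobe, so the counts of 33 and 1 are a description.

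The leading transcript of each barrier gene by TPM was compared between the ECs. Of the 71 genes, 51 had the same one, whether or not the libraries of a group agreed. Genes with 1 annotated transcript, such as Cldn5, are among the 51 and could not differ. Axin2-204 counts as shared at 2.68% and 64.0% of the gene's TPM in WT cerebellum and 0% and 71.6% in stabilized anterior pituitary ECs. Another 3 genes (Slc38a3, Alpl and Tcf7) led with a different transcript that was the same in both libraries of each group. For Tcf7 the transcript Tcf7-201 made up 92.3% and 76.0% of the gene's TPM in WT cerebellum ECs, and Tcf7-202 made up 67.3% and 72.2% in stabilized anterior pituitary ECs, where the gene itself was low.

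Genes of other cells were measured in the sorted libraries, and in bulk samples fewer cells of a type and less RNA per cell cannot be told apart. The 8 macrophage and leukocyte markers summed to 1009 and 798 TPM in stabilized anterior pituitary libraries, to 46.1 and 27.3 TPM in WT anterior pituitary and to 14.6 and 3.17 TPM in WT cerebellum. Cd74, a chaperone of antigen presentation, made up most of this at 935 and 718 TPM and was called higher than in WT anterior pituitary ECs (log2 fold change 5.62 ± 0.69, SE, adjusted p = 0.00227), and Lyz2, a macrophage lysozyme, was at 42.9 and 53.9 TPM against 0.392 and 0.0797 TPM. Cd163 was listed at 0 in the 4 libraries compared. The 9 microglia markers summed to 174 and 282 TPM against 18.6 and 12.1 TPM in WT cerebellum, with 5 of 9 called higher, among them the complement gene C1qb (44.3 and 51.3 TPM, 0 in both WT cerebellum libraries). The part of these cells in the results was not tested.

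Endocrine markers of the pituitary summed to 4675 and 4097 TPM against 36.5 and 32.8 TPM, and 6 of 10 were called higher. The 10 mural cell markers summed to 1125 and 903 TPM in WT cerebellum and 265 and 186 TPM in stabilized anterior pituitary libraries. Vtn (335 and 279 against 8.68 and 7.82 TPM), Rgs5 and the receptor gene Pdgfrb, all known from pericytes, were called lower, and Kcnj8 was called higher (14.2 and 14.6 against 77.8 and 46.1 TPM). Red cell genes summed to 65218 and 7177 TPM in WT cerebellum and immediate early genes to 1272 and 111 TPM, so the first WT cerebellum library stood apart from the second in both. Without that library 23 of the 26 out-of-reach, 14 of the 21 part-way, all 7 undecided and 16 of the 17 near genes kept their class, and 0 of the 71 were called higher. Immediate early genes summed highest in WT anterior pituitary libraries, at 3079 and 4147 TPM, against 953 and 685 TPM in stabilized anterior pituitary libraries. What this difference means for the steps from WT to stabilized anterior pituitary ECs was not tested. Neurons (16.3 and 13.5 TPM), fibroblasts (32.9 and 19.6 TPM) and pituicytes (10.7 and 6.98 TPM) gave low sums in stabilized anterior pituitary libraries, with Rax, a pituicyte gene, listed at 0. Astrocyte markers summed to 170.3 and 121 TPM in WT cerebellum and 462 and 289 TPM in stabilized anterior pituitary libraries, mostly from Gja1, which ECs also express. By gene, 2 of the 8 astrocyte markers were called lower and 1 higher, with a median log2 fold change of -4.37. Oligodendrocyte markers summed to 55.2 and 42.1 TPM in WT cerebellum and 18.2 and 16.1 TPM in stabilized anterior pituitary libraries. The part of mural, endocrine and red cell RNA in the results was not tested.

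**Figure D5:**
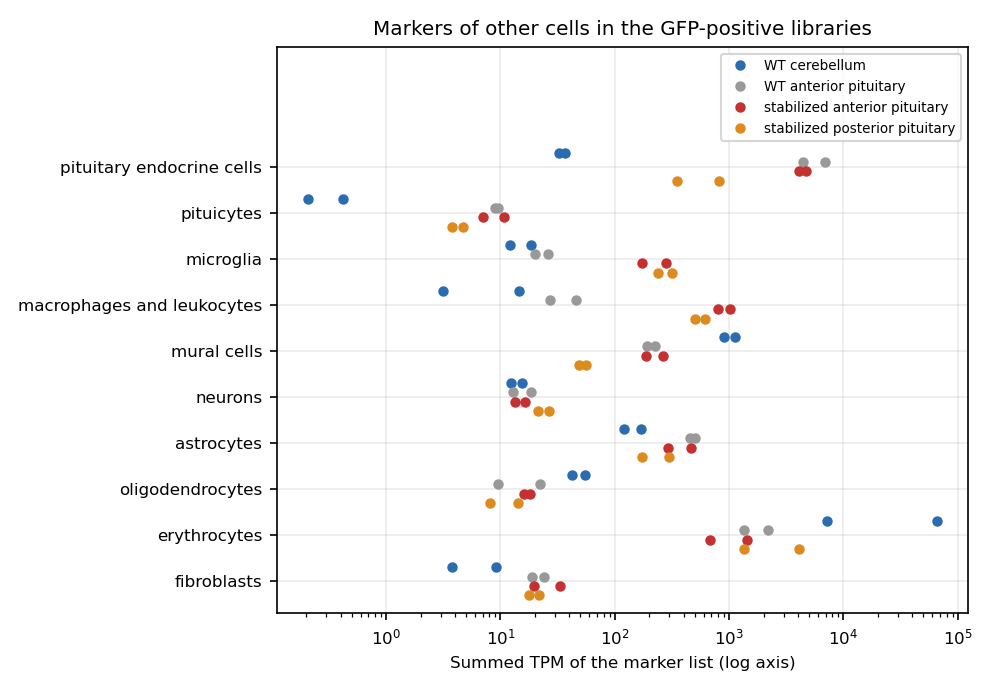
Summed TPM of 10 marker lists in the GFP-positive libraries of 4 groups, on a log axis, with 1 point a library. Macrophage and microglia sums are highest in the stabilized pituitary libraries, endocrine sums in the anterior pituitary libraries, and mural and red cell sums in the WT cerebellum libraries.

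Of the general lists, 2 of 10 EC genes were called higher in stabilized anterior pituitary than in WT cerebellum ECs, Emcn (166 and 155 against 762 and 477 TPM) and Mmrn2 (44.2 and 34.6 against 124 and 110.3 TPM), and none lower. Both calls were lost with all 24 sorted libraries (adjusted p = 0.27 and 0.639, edgeR), and that of Mmrn2 with the length offset (0.0634). Basement membrane genes gave 1 higher and 2 lower of 11. Hspg2, encoding perlecan, was the one called higher at 24.6 and 40.6 against 309.5 and 182 TPM. Fn1, encoding fibronectin, was part way at 199 and 281 TPM against 1218 and 962 TPM, and lost its call with only the 4 libraries, with all 24 and without the first stabilized or the second WT cerebellum library (adjusted p = 0.0594 to 0.372, edgeR). Of 6 leukocyte adhesion genes, Vcam1 alone was called, at 4.83 and 14.7 TPM against 41.7 and 62.8 TPM (log2 fold change -2.47 ± 0.41, SE, adjusted p = 0.00358), a call lost with all 24 sorted libraries and with the length offset (0.115 and 0.0957), and it was called higher than the 0 and 0.00657 TPM of WT anterior pituitary ECs (adjusted p = 1.25e-05).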

How the data were processed

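RNA-seq and ATAC-seq libraries of sorted GFP-positive cells were analysed, with 2 biological replicates a group. For RNA-seq the authors deposited, per transcript, estimated counts and TPM, made with Salmon 0.10.2 from single-end reads on the mouse mm10 (GRCm38) Ensembl release 92 transcriptome, after amplification with the Ovation kit. The deposited files also give effective lengths, a measure with its own unit, the base. For ATAC-seq the authors deposited peaks called per library with MACS2 2.1.1.20160309 after Bowtie2 2.3.2 alignment to mm10 and Picard duplicate removal, with heights as a fold enrichment and significance as a -log10 q. Pulldown and GFP-negative libraries entered only where named, and ATAC-seq of other groups was not used here.

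Estimated counts were summed per gene with GENCODE M21 names and rounded (402 of 130740 transcripts did not match and held 0.170 to 0.347% of reads in the 4 libraries compared). Genes were filtered with filterByExpr and scaled by TMM, and edgeR 4.0.16 (R 4.3.3) fitted the quasi-likelihood test to the 12 GFP-positive libraries with Benjamini-Hochberg adjustment. The EBSeq test of the study's methods was not used here. TPM was summed per gene and used for levels. DESeq2 1.42.0, other scalings and filters, other sets of libraries, an offset for transcript length, a replicate block and leaving out each library were tried as alternatives. The test was first run on simulated data with known changes. Depth is the total of estimated counts, 23300085 to 33458597 over the 4 libraries, and counting intervals and floors cover counting error only.

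The members and gene lists were chosen with earlier results of these data known. Genes were named if they stood on a barrier or permeable list at 10 TPM or more in both libraries of either group, or were among the 6 largest falls or rises with no overlap in TPM, or the 6 gap transcripts with the highest level, besides Ctnnb1. The peaks within 100 kb of the genes and the sequence letters were added after the data were seen. Promoters and genes follow GENCODE M21, and sequences are RefSeq GRCm38. Of the listed genes, 3 are counted in the classes but are not reported here.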

Additional observations from a re-analysis of the deposited data

Results flagged for a closer look

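The effect of stabilization (stabilized minus WT, log2) was compared between anterior and posterior pituitary ECs by an interaction term in edgeR, which called 0.0558% of all genes lower and 0.0726% higher in the anterior lobe. A total of 10 listed genes differed between the lobes. The anterior effect was smaller for Slc2a1 by a difference of -3.91 ± 0.47 (SE, adjusted p = 0.00494), and the WT posterior pituitary libraries were at 21.1 and 24.8 TPM against 511 and 511 TPM after stabilization. In the anterior lobe Slc2a1 was at 10.8 and 16.7 TPM in WT and 34.7 and 76.5 TPM in stabilized libraries. For the iron exporter gene Slc40a1 the difference was -6.28 (adjusted p = 0.00335), with 17.1 and 18.7 TPM in stabilized posterior and 1.19 and 6.27 TPM in stabilized anterior pituitary ECs. For the organic anion exporter gene Slc22a8 it was -8.79 (adjusted p = 0.00186), a fitted size that depends on the prior count, since the WT posterior libraries were at 0.094 and 0 TPM. The Wnt inhibitor gene Apcdd1 gave -2.84 (adjusted p = 0.0182). The anterior effect was larger for Car4, by 8.19 (adjusted p = 0.00186), where WT posterior pituitary ECs already had 256 and 86.4 TPM and WT anterior pituitary ECs 0 and 0.179 TPM. It was larger also for Cd36, by 12.01 (adjusted p = 0.0135), with 23.95 and 31.7 TPM in WT posterior and 0 in both WT anterior pituitary libraries, so that this fitted size depends on the prior count as well. The endothelial adhesion gene Vcam1 gave 8.34 (adjusted p = 0.00186), with 4.93 and 7.10 TPM in WT posterior and 0 and 0.00657 TPM in WT anterior pituitary ECs, and Bche, a cholinesterase gene, gave 9.64 (adjusted p = 0.0278), with 2.24 and 1.42 TPM in WT posterior and 0 in both WT anterior pituitary libraries, so that both sizes depend on the prior count. For Vwf, encoding von Willebrand factor, the difference was 4.76 (adjusted p = 0.0122), and stabilized libraries were at 2.08 and 5.70 TPM in the anterior and 23.9 and 46.4 TPM in the posterior lobe. WT libraries were at 0.296 and 0.137 TPM in the anterior and 6.31 and 25.7 TPM in the posterior lobe. For Rgs5, a pericyte marker, it was 2.19 (adjusted p = 0.029), with 123 and 59.4 TPM in WT posterior against 36.2 and 30.9 TPM after stabilization, and 41.2 and 45.2 TPM in WT anterior against 147 and 104 TPM after stabilization.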

How the results depend on the processing

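Over 136 named genes and 11 alternatives there were 1496 log2 fold changes, of which 1317 kept direction and call, 133 lost the call, 40 gained it and 6 reversed. The 341 lower and 376 higher genes became 584 and 902 with DESeq2, 534 and 694 with no filter on low counts, 528 and 575 with only the 4 libraries compared, 182 and 221 with the length offset and 216 and 297 with all 24 sorted libraries. Leaving out 1 library at a time gave 149 to 217 lower and 232 to 292 higher genes. Out-of-reach and near counts stayed within 1.5 times of 26 and 17 under the alternatives run, whereas the 21 part-way genes fell to 7 with all 24 libraries, to 10 with the length offset and to 10 to 16 without 1 library, and 3 of them (Slc7a1, Slc39a10 and Foxc1) kept their class in every setting. The 7 undecided genes became 0 with no filter, 28 with all 24 libraries, 20 with the length offset and 14 to 22 without 1 library. Of the barrier genes past 10 TPM, 0 were called higher, against 1 with DESeq2 and 1 with no filter (Fzd4 in both), and 0 to 1 without 1 library. The 1 was Abca1, outside the 71, which passed 10 TPM once the first WT cerebellum library was left out; Slc29a1 entered then too, and Abcc5 and Znrf3 without the second. The gap transcript median of 30.2% was 25.1% on TMM-normalized CPM, 28.7% with a minimum of 1 TPM (233 transcripts), 42.5% and 27.7% with list and level from different replicates (316 and 216 transcripts), and 21.0% to 30.7% without 1 library, lowest without the second WT cerebellum library. Lamb2 reversed to 0.16 and Tnks1bp1 to 0.023 with the length offset, and without 1 library Abcc5 ranged from -0.092 to 0.75, Sox18 from -0.84 to 0.46 and Angpt2 from -0.71 to 0.87. The causes were not tested. Promoter peak counts of 67, 57 and 64 became 62, 54 and 61 at a fold enrichment and -log10 q above 4.

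The methods describe anterior and posterior lobes of each pool placed in separate tubes, so libraries of the 2 lobes can share mice. The fits between lobes held no term for this. In the values measured, replicate numbers did not pair the samples. Same-numbered libraries of the 2 groups deviated with a correlation of 0.03 (-0.02 to 0.03 over 15 pairs of groups), and a replicate block gave 357 lower and 400 higher genes and 27 out-of-reach, 22 part-way, 5 undecided and 17 near genes. With 2 libraries a group, a level that was not called different is not shown to be equal.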
